A study of Paeonia suffruticosa with 12 samples.

Results

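Embryo seedlings of the peony "FengDan" (Paeonia suffruticosa) raised with activated carbon and polyvinyl pyrrolidone together (AC and PVP) were compared with seedlings raised with no anti-browning agent (CK). The members were chosen by the treatment label, which gave 3 libraries of AC and PVP and 3 of CK, 6 of the 12 libraries in the series. The medium of AC and PVP held 0.9 g/L activated carbon (AC) and 2.5 g/L polyvinyl pyrrolidone (PVP). The other 6 libraries came from seedlings with AC alone at 0.9 g/L and with PVP alone at 2 g/L, so the dose of PVP was not the same with and without AC. The medium of CK held neither (0 g/L of each). All groups shared the same basal medium with agar, sucrose and an auxin and were labelled as taken at day 30. Each library is a pool of seedlings grown from separate seed embryos, and a p-value therefore measures the spread between such pools. The labels name roots, stems and leaves as the tissue and the study's methods name leaves and roots, and the sources also differ on whether CK seedlings had formed roots. The organ mix of a pool and the treatment of its seedlings cannot be told apart in this design, nor can fewer cells of a type and less RNA per cell.

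Cut plant tissue turns brown when phenolic compounds made by the phenylpropanoid pathway meet oxidising enzymes such as polyphenol oxidases, laccases and class III peroxidases. Activated carbon adsorbs many compounds from a culture medium, among them phenolics and growth regulators, and polyvinyl pyrrolidone is a polymer that binds phenolics. The same phenylpropanoid precursors also feed lignin and suberin, which seal and stiffen the walls of root cells, while cutin and waxes belong to the surface of the shoot. A seedling draws on the storage proteins and oil bodies laid down in its embryo until its leaves photosynthesise.

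The deposited estimated counts summed to 19715848, 18068042 and 11071691 in AC and PVP replicates 1 to 3 and to 22966921, 21323137 and 19446758 in CK replicates 1 to 3. The scaling factors (TMM, which centres most unigenes between libraries) ran from 0.825 to 1.07 in AC and PVP and from 1.04 to 1.47 in CK. The 10 most abundant unigenes took 30.7% to 33.1% of the counts in AC and PVP and 21.7% to 23.8% in CK. Levels are given as TMM-scaled CPM (counts divided by the scaled library size), with no correction for transcript length, so they are compared between libraries and not between unigenes. Summed levels of gene lists are instead in CPM of the library total, without TMM scaling. Unigenes are the assembled transcripts, and their names are matches to Swiss-Prot proteins of other species. Names were at hand only for 769 of the 58247 unigenes tested, all of them unigenes that the study listed as changed in comparisons of the same libraries, so no count over named unigenes is independent evidence of a direction.

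Between AC and PVP and CK, 460 unigenes were differentially expressed (DEGs) by edgeR's quasi-likelihood test, with an adjusted p (Benjamini-Hochberg) below 0.05 and a log2 fold change beyond 1 in either direction. They were 0.79% of the unigenes tested. Of these, 257 were higher in AC and PVP (0.441%) and 203 were lower (0.349%). The libraries of both groups did not overlap in 256 of the higher and 201 of the lower DEGs, and in 3 of the DEGs they overlapped. Over all unigenes tested, the libraries did not overlap for 3396 with AC and PVP higher (5.83%) and for 5446 with AC and PVP lower (9.35%). Among the 769 named unigenes, 109 were higher (14.2%) and 41 were lower (5.33%), and it is these shares that the counts for the gene lists are to be read against. The median log2 fold change over all unigenes tested was -0.12, and 7441 unigenes had an unadjusted p under 0.05. The direction split depended on the scaling, with 314 higher and 136 lower by RLE size factors and 210 higher and 557 lower by library sizes alone, whose medians over all unigenes were -0.01 and -0.5. Each library weighed on the count, which was 138, 208 and 50 without AC and PVP replicates 1, 2 and 3 and 165, 734 and 50 without CK replicates 1, 2 and 3. Of the 85 called unigenes that the rule for naming chose, 40, 47 and 24 stayed called without AC and PVP replicates 1, 2 and 3 and 40, 72 and 22 without CK replicates 1, 2 and 3. In each of 17 other fits 13 stayed called, 12 higher and 1 lower. The 10 of these with a name were TCTP TRINITY_DN10927_c0_g1, PTR1, RD22, PSBM, AS1, GDL34, VITH4, NLTP TRINITY_DN55495_c0_g1 and the NLTPC transcripts TRINITY_DN35416_c0_g1 and TRINITY_DN9532_c0_g1, and each other named unigene called against CK below lost its call in at least 1 of these fits.

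**Figure D1:**
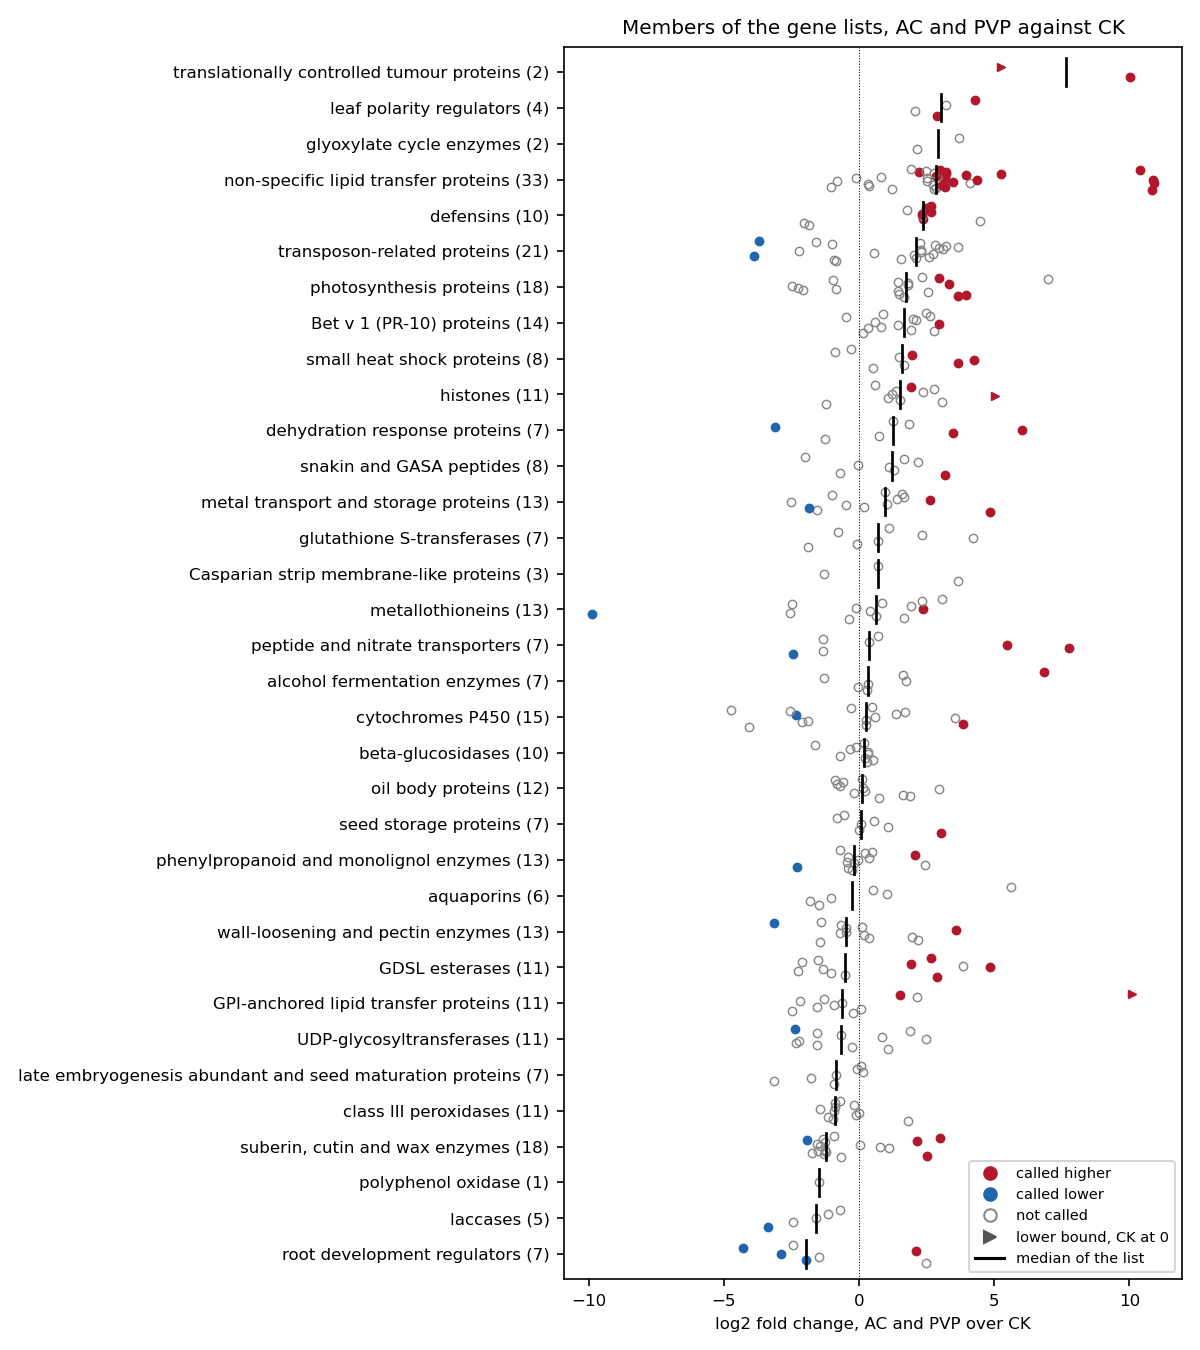
Log2 fold change of AC and PVP over CK for each member of the 34 gene lists, with the number of members tested in brackets and lists ordered by their median. Filled points are DEGs (red higher, blue lower), open points are not, triangles stand at the smallest change that counts of 0 in CK allow, and bars are medians, which run from -1.96 for root development regulators to 3.04 for leaf polarity regulators, with the translationally controlled tumour proteins above them.

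Of the 34 lists, the non-specific lipid transfer proteins held the most higher DEGs, and they were also the longest list. These are small secreted carriers of lipids, abundant at plant surfaces. Of 33 members, 16 were higher and 0 lower (14.2% and 5.33% among named unigenes, 0.441% and 0.349% among all tested), and 30 had a log2 fold change above 0, with a median of 2.85 against -0.12 over all unigenes. Their summed level was 25600, 22900 and 37600 CPM of the library total in AC and PVP and 3380, 10300 and 7870 CPM in CK, with no overlap between the groups. The 4 members matched to the protein NLTPC showed the widest separation. TRINITY_DN1059_c0_g1 had 148, 34.4 and 1430 CPM in AC and PVP and 0.178, 0.314 and 0.388 CPM in CK (log2 fold change 10.84, SE 1.67, adjusted p = 0.011). TRINITY_DN27316_c1_g1 had 66.1, 13 and 771 CPM in AC and PVP and 0.267, 0.0898 and 0.0388 CPM in CK (log2 fold change 10.91, SE 1.69, adjusted p = 0.011). In all 4 the AC and PVP libraries themselves spread widely, with replicate 3 highest and replicate 2 lowest. TRINITY_DN35416_c0_g1 and TRINITY_DN9532_c0_g1 had only 3 counts each in the whole of CK, and their ratios of AC and PVP to CK were 1700 (95% counting interval 582 to 8260) and 1240 (424 to 6030). These intervals cover counting error only. The NLTPC transcripts could be copies or alleles of few genes that the assembly split, and they may share reads.

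Of the other called members that were plainly detected in both groups, 3 are given here. They were not the only ones, since NLTP TRINITY_DN51745_c0_g1 had 22.8, 69.1 and 44.4 CPM in CK. NLTP TRINITY_DN55495_c0_g1 had 200, 255 and 527 CPM in AC and PVP and 7.58, 9.39 and 8.93 CPM in CK (log2 fold change 5.24, SE 0.68, adjusted p = 0.006), and each AC and PVP library was far above each CK library. NLTP1 TRINITY_DN40272_c1_g1 had 383, 358 and 618 CPM in AC and PVP and 10.4, 96.8 and 43.9 CPM in CK, with the groups apart and CK replicate 1 well below the other two (log2 fold change 3.17, SE 0.66, adjusted p = 0.038). NLTP TRINITY_DN6400_c0_g1 was the most even, with 653, 1170 and 664 CPM in AC and PVP and 149, 220 and 160 CPM in CK (log2 fold change 2.23, SE 0.42, adjusted p = 0.026). The number of members called was 8, 8 and 6 without AC and PVP replicates 1, 2 and 3, and 7, 24 and 3 without CK replicates 1, 2 and 3. Lipid transfer proteins held by a GPI anchor, which fasten lipid transport to the outside of the membrane, did not move as one group. Of 11 members, 2 were higher and 0 were lower (14.2% and 5.33% among named unigenes), and the median was -0.64. LTPG1 (TRINITY_DN6118_c0_g1), an exporter of surface lipids in Arabidopsis, had 74.9, 60.4 and 75.4 CPM in AC and PVP and 22, 29.8 and 21.3 CPM in CK (log2 fold change 1.53, SE 0.28, adjusted p = 0.024). LTG14 (TRINITY_DN89941_c0_g1) had 38.3, 2.82 and 93.5 CPM in AC and PVP and 0 in each CK library, at least 1090-fold higher against a floor of 3 counts over the group, and its call (adjusted p = 0.038) was lost in 7 of 17 other fits, whose adjusted p ran from 1.5e-57 to 0.23.

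Plant defensins are cysteine-rich antimicrobial peptides, and 5 of 10 were higher and 0 lower (14.2% and 5.33% among named unigenes), with a median log2 fold change of 2.35. DEF TRINITY_DN8257_c3_g1 had 254, 350 and 348 CPM in AC and PVP and 49.9, 64.1 and 56.5 CPM in CK (log2 fold change 2.48, SE 0.39, adjusted p = 0.013). DEF02 TRINITY_DN8815_c1_g1 had 66.1, 197 and 208 CPM in AC and PVP and 18.3, 27.1 and 28.2 CPM in CK (log2 fold change 2.68, SE 0.44, adjusted p = 0.014). The 5 called members kept AC and PVP apart from CK, whereas the summed level of all 10 was 896, 1790 and 1860 CPM in AC and PVP and 412, 4940 and 332 CPM in CK, and CK replicate 2 was the highest of all 6. Without CK replicate 3 none of the 10 was called, and without AC and PVP replicate 3 only 1 was. DEF TRINITY_DN6173_c1_g1 and DEF TRINITY_DN26079_c0_g1 had log2 fold changes of 2.68 and 2.35, and DEF02 TRINITY_DN50648_c0_g1 had 2.34. GASA6 (TRINITY_DN10115_c0_g1), a gibberellin-regulated peptide, had 387, 311 and 759 CPM in AC and PVP and 48.9, 73.6 and 38.4 CPM in CK (log2 fold change 3.18, SE 0.59, adjusted p = 0.024), and it was the 1 member called among 8 snakin and GASA peptides. Of 14 Bet v 1 (PR-10) proteins, a family of small stress-induced intracellular proteins, 13 had a log2 fold change above 0 (median 1.67) and 1 was called. That member, PRU1 (TRINITY_DN4037_c0_g1), had 279, 656 and 448 CPM in AC and PVP and 34.2, 77.6 and 67.3 CPM in CK (log2 fold change 2.95, SE 0.58, adjusted p = 0.031).

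Of 4 regulators of leaf polarity, 2 were higher in AC and PVP and 2 were not called. AS1 (TRINITY_DN3372_c0_g1), which in Arabidopsis keeps meristem genes silent in the leaf and helps set its upper side, had 9.95, 7.51 and 18.7 CPM in AC and PVP and 1.66, 1.84 and 1.4 CPM in CK (log2 fold change 2.88, SE 0.41, adjusted p = 0.01). YAB1 (TRINITY_DN76361_c0_g1), which marks the lower side of lateral organs, had 2.27, 1.21 and 2.07 CPM in AC and PVP and 0.0297, 0.225 and 0.0388 CPM in CK (log2 fold change 4.29, SE 0.69, adjusted p = 0.012). All 4 leaf polarity members separated the groups (5.83% of all unigenes did so with AC and PVP higher). A second YAB1 (TRINITY_DN6291_c2_g1) had 8.01, 4.76 and 6.21 CPM in AC and PVP and 0.208, 1.48 and 0.427 CPM in CK, and missed the threshold (adjusted p = 0.053). YAB5 (TRINITY_DN3944_c0_g1) had 22.8, 15.8 and 42.6 CPM in AC and PVP and 8.23, 7.18 and 3.88 CPM in CK (adjusted p = 0.057). The summed level of the 4 was 46.1, 24.1 and 69.8 CPM in AC and PVP and 14.8, 11.2 and 7.61 CPM in CK. Without CK replicate 3, 1 of them stayed called, and without CK replicate 2, 3 were.

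Photosynthesis transcripts moved in part. Of 18 members, 4 were higher and 0 lower (14.2% and 5.33% among named unigenes). The groups separated in 11 with AC and PVP higher and in 2 with it lower (5.83% and 9.35% of all unigenes). The median was 1.73. CB21 (TRINITY_DN12560_c0_g1), a chlorophyll a/b-binding antenna protein, had 28.3, 77.4 and 25.9 CPM in AC and PVP and 2.32, 3.55 and 4.54 CPM in CK (log2 fold change 3.66, SE 0.64, adjusted p = 0.019). PSBM (TRINITY_DN3846_c0_g2), a small photosystem II subunit encoded in the plastid, had 281, 311 and 188 CPM in AC and PVP and 16.8, 33 and 27.4 CPM in CK (log2 fold change 3.34, SE 0.47, adjusted p = 0.01). PSBA (TRINITY_DN646_c2_g1), the plastid-encoded D1 core protein of photosystem II, had 13, 22.8 and 17 CPM in AC and PVP and 1.01, 2.65 and 3.14 CPM in CK (log2 fold change 2.96, SE 0.52, adjusted p = 0.019). The study primed its cDNA with oligo-dT, and how evenly that captured the plastid-encoded PSBM and PSBA was not tested. The other called member was a second CB21 (TRINITY_DN12560_c2_g1) from the same assembly cluster. In CPM of the library total, the summed level of the list overlapped, with 3370, 2480 and 3190 CPM in AC and PVP and 2360, 1920 and 3660 CPM in CK. TMM scaling, used for single members, divides by 1.07, 0.825 and 1 in AC and PVP and by 1.47, 1.04 and 1.33 in CK. On that scale each AC and PVP sum lay above each CK sum, a separation that was not tested. An abundant uncalled member was a carbonic anhydrase (CAHC, TRINITY_DN2623_c1_g1), at 1060, 509 and 768 CPM in AC and PVP and 1170, 1060 and 1970 CPM in CK. The number called was 5, 3 and 3 without AC and PVP replicates 1, 2 and 3 and 2, 6 and 2 without CK replicates 1, 2 and 3. Outside the list, CP122 (TRINITY_DN11019_c1_g1), a regulator of the Calvin cycle, had 2100, 3730 and 4370 CPM in AC and PVP and 458, 348 and 586 CPM in CK (log2 fold change 2.87, SE 0.56, adjusted p = 0.03).

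**Figure D2:**
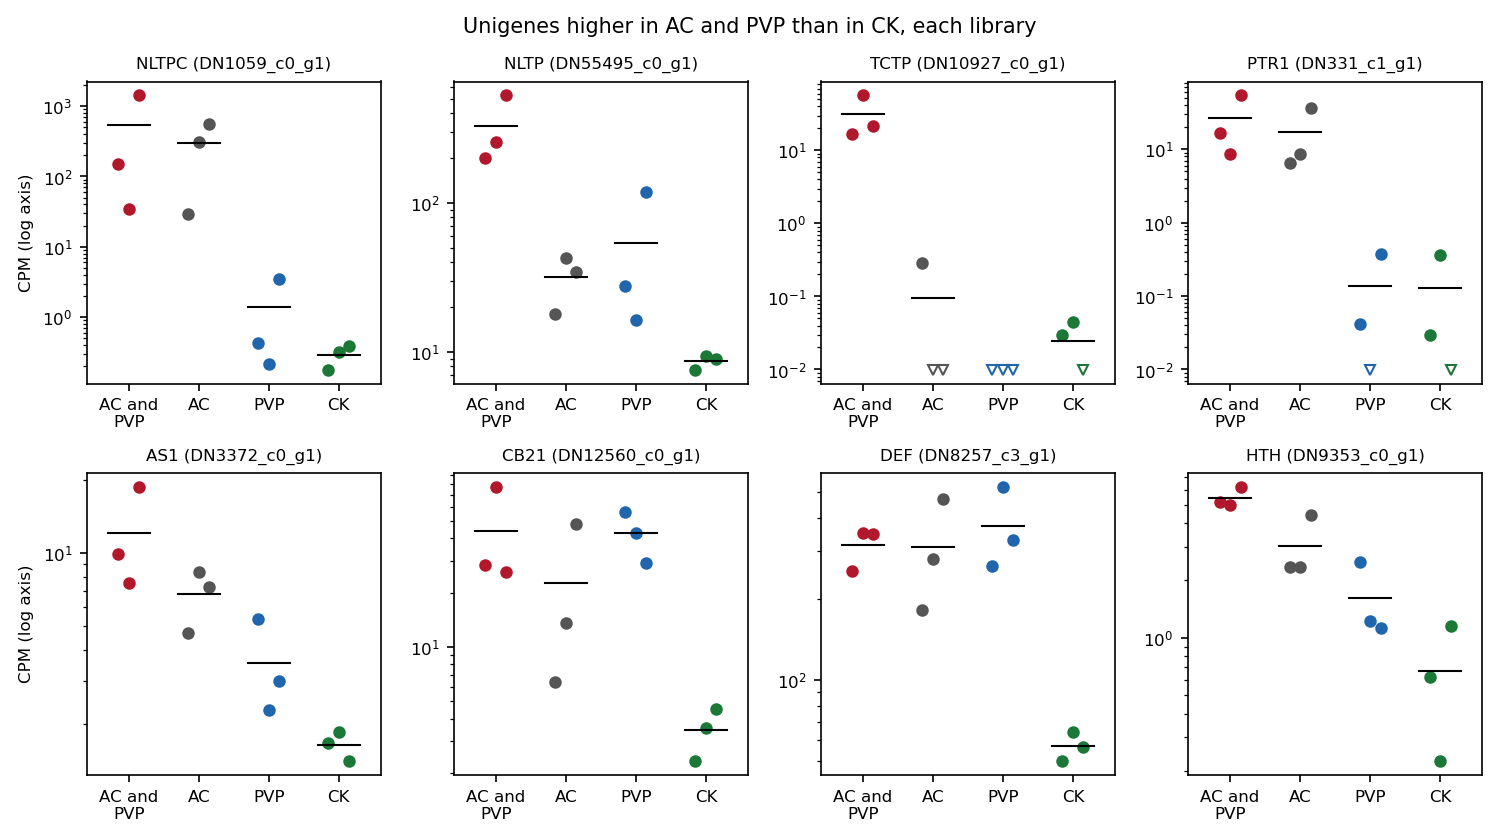
Level of 8 unigenes that were higher in AC and PVP than in CK, in CPM on log axes, with 1 point per library, bars at group means and open triangles for libraries at 0. In each panel the 3 AC and PVP libraries lie above the 3 CK libraries; TCTP was at 0 in each PVP library and in 2 of the 3 AC libraries, whereas DEF had similar levels with AC alone and PVP alone.

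Histones, the proteins that package newly made DNA, had 2 of 11 members higher and 0 lower (14.2% and 5.33% among named unigenes). The groups separated in 8 members with AC and PVP higher (5.83% of all unigenes), and the median was 1.52. H41 (TRINITY_DN9017_c0_g2) had 50.1, 51.2 and 46.8 CPM in AC and PVP and 15, 12.9 and 11.4 CPM in CK (log2 fold change 1.91, SE 0.4, adjusted p = 0.038). Both groups were tight in it, yet the call was lost without any 1 of the 6 libraries. No histone was called in any of these 6 fits. The other called histone, H41 TRINITY_DN14029_c1_g1, had counts only in AC and PVP and was tested only through these libraries. NAP1C (TRINITY_DN1430_c0_g3), a nucleosome assembly protein, went the other way, with 111, 64.3 and 87.6 CPM in AC and PVP and 457, 447 and 511 CPM in CK (log2 fold change -2.43, SE 0.38, adjusted p = 0.012).

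Of 7 regulators of root development, 3 were lower in AC and PVP, 1 was higher and 3 were not called (5.33% lower and 14.2% higher among named unigenes, 0.349% and 0.441% among all), 5 separated the groups with AC and PVP lower, and the median was -1.96. PLET2 (TRINITY_DN4352_c1_g1), an AP2 factor that maintains the stem cells of the root tip in Arabidopsis, had 0.0474, 0.403 and 0.27 CPM in AC and PVP and 7.19, 1.8 and 4.23 CPM in CK (log2 fold change -4.28, SE 0.81, adjusted p = 0.024). MYB36 (TRINITY_DN3020_c0_g1), which directs formation of the Casparian strip in the Arabidopsis root endodermis, had 1.8, 3.22 and 1.89 CPM in AC and PVP and 7.01, 11.8 and 8.27 CPM in CK (log2 fold change -1.96, SE 0.36, adjusted p = 0.024). DRO1 (TRINITY_DN3617_c0_g1), which steers root growth angle in rice, had 2.37, 1.61 and 1.53 CPM in AC and PVP and 17.1, 2.69 and 21.2 CPM in CK (log2 fold change -2.88, SE 0.59, adjusted p = 0.037), with CK replicate 2 close to the AC and PVP libraries. MIZ1 (TRINITY_DN3645_c0_g1), needed for root growth towards water in Arabidopsis, was the member called higher, with 6.07, 7.25 and 7.38 CPM in AC and PVP and 0.802, 1.89 and 2.1 CPM in CK (log2 fold change 2.12, SE 0.4, adjusted p = 0.025). The remaining 3 members were not called. They were RHL1 (log2 fold change -1.48), MYB93 (-2.44) and AIL1 (2.47), with adjusted p of 0.059, 0.1 and 0.17. The summed level of the 7 was 24.1, 21.4 and 29 CPM in AC and PVP and 68.5, 39.5 and 69.6 CPM in CK. The number called lower was 0, 2 and 0 without AC and PVP replicates 1, 2 and 3 and 1, 4 and 0 without CK replicates 1, 2 and 3. None of 11 class III peroxidases, many of them active in root walls, was called by edgeR (median -0.88). Of the 11, 9 had a log2 fold change below 0, 3 had an unadjusted p under 0.05, and DESeq2 on all libraries called 1 higher and 1 lower. None of 3 Casparian strip membrane-like proteins was called by edgeR (median 0.7), against 2 at an unadjusted p under 0.05 and 1 higher by DESeq2.

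Of 18 enzymes of suberin, cutin and wax synthesis, 3 were higher and 1 was lower (14.2% and 5.33% among named unigenes). A log2 fold change below 0 was found in 12, and 6 separated the groups with AC and PVP lower against 4 with it higher. The 3 higher members act in cutin or wax synthesis in Arabidopsis. HTH (TRINITY_DN9353_c0_g1), which acts in cutin formation, had 5.17, 4.96 and 6.21 CPM in AC and PVP and 0.624, 0.225 and 1.16 CPM in CK (log2 fold change 3, SE 0.49, adjusted p = 0.014). DCR (TRINITY_DN5597_c0_g1), an acyltransferase for cutin, had 14.5, 16 and 22.5 CPM in AC and PVP and 4.84, 1.84 and 5.12 CPM in CK (log2 fold change 2.16, SE 0.4, adjusted p = 0.023). FACR3 (TRINITY_DN1082_c0_g1), a reductase that makes fatty alcohols for wax, had 3.98, 3.69 and 5.94 CPM in AC and PVP and 0.832, 0.494 and 1.05 CPM in CK (log2 fold change 2.5, SE 0.45, adjusted p = 0.022). HHT1 (TRINITY_DN676_c0_g1), which joins ferulate to suberin acids, was the member called lower, with 50.3, 59 and 34.4 CPM in AC and PVP and 153, 104 and 293 CPM in CK (log2 fold change -1.93, SE 0.42, adjusted p = 0.044). Its call was lost with RLE size factors and without each library but CK replicate 2, with an adjusted p of 6.1e-05 to 0.21 over all other fits. The direction of the calls moved with the fit. With RLE size factors 3 of the 18 were higher and 0 lower, and with DESeq2 on all libraries 3 were higher and 5 lower. Without CK replicate 2, 3 were higher and 4 lower, and without each other library 0 to 3 were higher and 0 lower. The summed level of the 18 was 123, 109 and 102 CPM in AC and PVP and 343, 158 and 549 CPM in CK. GDSL esterases, a lipase family that includes enzymes building or breaking down cutin and suberin, had 4 of 11 members higher and 0 lower (median -0.52). GDL34 (TRINITY_DN8165_c0_g1) had 30, 23.5 and 30.5 CPM in AC and PVP and 3.74, 5.7 and 3.73 CPM in CK (log2 fold change 2.67, SE 0.37, adjusted p = 0.01), with replicates of each group close together. GDL29 (TRINITY_DN39582_c0_g1) had 4.69, 2.08 and 7.2 CPM in AC and PVP and 0.0891, 0.404 and 0 CPM in CK (log2 fold change 4.86, SE 0.73, adjusted p = 0.01).

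The browning enzymes showed few calls. The 1 polyphenol oxidase (PPO, TRINITY_DN5115_c0_g1), which oxidises phenols to quinones, had 20.6, 30.3 and 15.2 CPM in AC and PVP and 44.1, 83.4 and 56.1 CPM in CK. The groups did not overlap, but the difference missed the threshold (log2 fold change -1.47, SE 0.45, adjusted p = 0.16). It passed in 4 of 17 other fits, namely with library sizes alone (adjusted p = 0.034), with no filter (0.0064), with DESeq2 on the 2 groups (0.026) and with the replicate number as a block (0.042), and its adjusted p ran up to 0.46. All 5 laccases, copper oxidases that couple monolignols into lignin, had a log2 fold change below 0 (median -1.6), and 1 was called. LAC1 (TRINITY_DN10795_c0_g1) had 0.284, 0.335 and 0.18 CPM in AC and PVP and 3.57, 2.74 and 2.17 CPM in CK (log2 fold change -3.35, SE 0.72, adjusted p = 0.042), a call that was kept only without CK replicate 2 among the 6 fits with 1 library left out. LAC3 (TRINITY_DN4988_c0_g1) had 3.32, 6.78 and 4.41 CPM in AC and PVP and 24.7, 2.38 and 50.7 CPM in CK, where replicate 2 was below the AC and PVP libraries (adjusted p = 0.18). Of 13 phenylpropanoid and monolignol enzymes, 1 was higher and 1 was lower (median -0.18). CSE (TRINITY_DN17083_c0_g1), an esterase of the lignin branch, had 3.03, 2.08 and 2.61 CPM in AC and PVP and 6.33, 21.9 and 10.1 CPM in CK (log2 fold change -2.3, SE 0.41, adjusted p = 0.02). 4CLL7 (TRINITY_DN462_c0_g2), a relative of the enzyme that activates coumaric acid, had 17.1, 7.92 and 39.9 CPM in AC and PVP and 5.41, 5.79 and 4.07 CPM in CK (log2 fold change 2.08, SE 0.46, adjusted p = 0.049). Among enzymes that modify such products, UFOG (TRINITY_DN8301_c0_g2), a flavonoid glucosyltransferase, was the 1 call among 11 UDP-glycosyltransferases, with 13.9, 20.8 and 11.4 CPM in AC and PVP and 59.3, 49.8 and 132 CPM in CK (log2 fold change -2.38, SE 0.48, adjusted p = 0.035). Of 15 cytochromes P450, C93B2 was higher and C14C2 was lower. C93B2 (TRINITY_DN25528_c0_g1) had 4.88, 2.55 and 4.14 CPM in AC and PVP and 0.0297, 0.718 and 0.116 CPM in CK (log2 fold change 3.83, SE 0.72, adjusted p = 0.026). C14C2 (TRINITY_DN6959_c0_g1) had 28.7, 32.1 and 15.5 CPM in AC and PVP and 91.6, 171 and 125 CPM in CK (log2 fold change -2.34, SE 0.35, adjusted p = 0.01).

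**Figure D3:**
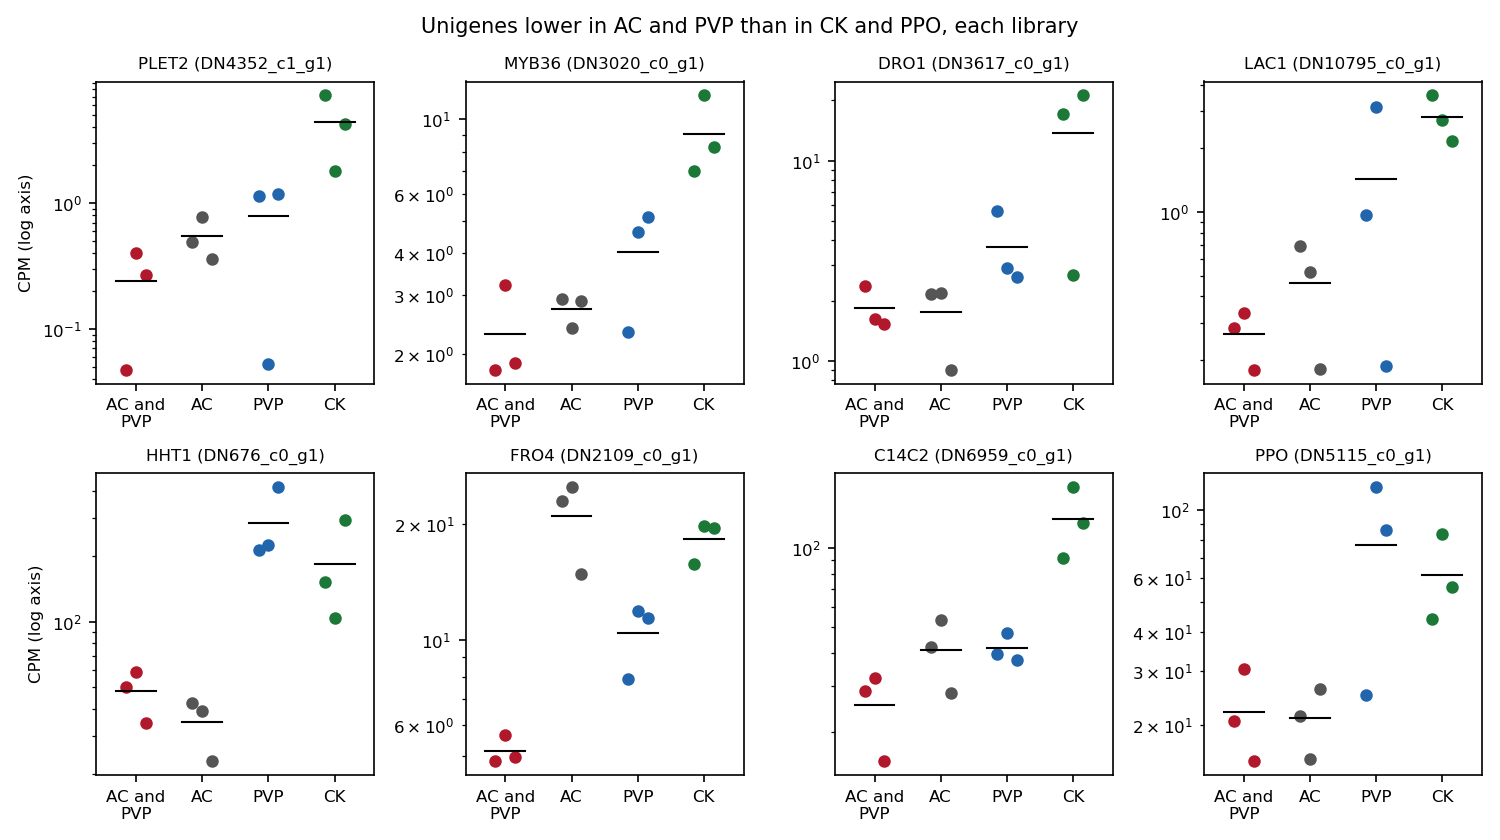
Level of 7 unigenes called lower in AC and PVP than in CK and of the polyphenol oxidase PPO, which was not called, in CPM on log axes, with 1 point per library and bars at group means. For FRO4 the AC libraries lie with CK and above AC and PVP, and for HHT1 the PVP libraries lie with CK.

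Some single unigenes were nearly on in AC and PVP and off in CK. TCTP (TRINITY_DN10927_c0_g1), a translationally controlled tumour protein linked to cell growth, had 16.9, 57 and 21.8 CPM in AC and PVP and 0.0297, 0.0449 and 0 CPM in CK, where 2 counts were found in all, giving a ratio of 1250 (95% counting interval 347 to 10400, adjusted p = 0.00031). A second TCTP (TRINITY_DN37979_c1_g1) had 0.569, 2.82 and 1.08 CPM in AC and PVP and 0 in each CK library, at least 38.1-fold higher. H41 (TRINITY_DN14029_c1_g1) had 1.42, 0.403 and 1.89 CPM in AC and PVP and 0 in each CK library, at least 32.9-fold higher. Both had counts only in the 3 AC and PVP libraries, and a nonzero count in 3 libraries was required for testing. They thus passed the filter only through the group where they were high, and their calls are no support for a difference. PTR1 (TRINITY_DN331_c1_g1), a transporter of small peptides, had 16.7, 8.52 and 54.6 CPM in AC and PVP and 0.0297, 0.359 and 0 CPM in CK (log2 fold change 7.76, SE 1.18, adjusted p = 0.01). PDC (TRINITY_DN74623_c0_g1), pyruvate decarboxylase of alcohol fermentation, had 7.44, 7.72 and 3.96 CPM in AC and PVP and 0.0297, 0.135 and 0 CPM in CK (log2 fold change 6.84, SE 1.37, adjusted p = 0.026), and it was the only call among 7 fermentation enzymes. RD22 (TRINITY_DN20734_c0_g1), a protein induced by drying, had 6.78, 2.48 and 6.3 CPM in AC and PVP and 0.0891, 0.135 and 0 CPM in CK (log2 fold change 6.03, SE 0.83, adjusted p = 0.006). Not all transporters of the PTR1 family went this way, since PTR18 (TRINITY_DN10149_c0_g1) was lower, with 21.6, 24.4 and 9.36 CPM in AC and PVP and 136, 41.8 and 126 CPM in CK (log2 fold change -2.45, SE 0.5, adjusted p = 0.036). Against CK, PTR1 and RD22 were also higher with AC alone (log2 fold changes 7.14 and 5.29, each with edgeR adjusted p = 0.02). With PVP alone RD22 and PDC were higher (4.94 and 6.32, edgeR adjusted p = 0.02 and 0.041). TCTP TRINITY_DN10927_c0_g1 was called with neither agent alone. No sequence of these unigenes was used here, and reads shared between near-identical copies could move between them.

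Stress and metal lists held calls in both directions. Their counts are to be read against 14.2% higher and 5.33% lower among named unigenes, and those of the 2 metal lists were near or below these shares. Of 7 dehydration response proteins, RD22 and ERD15 were higher and DRE2B was lower. ERD15 (TRINITY_DN17180_c0_g1), an early dehydration gene, had 49.6, 109 and 29.9 CPM in AC and PVP and 4.87, 11 and 0.893 CPM in CK (log2 fold change 3.49, SE 0.68, adjusted p = 0.029). DRE2B (TRINITY_DN209_c0_g1), a transcription factor of the drought response, had 11.6, 7.18 and 5.58 CPM in AC and PVP and 45.7, 42.7 and 125 CPM in CK (log2 fold change -3.12, SE 0.51, adjusted p = 0.014). Small heat shock proteins, chaperones that hold unfolded proteins, had 3 of 8 members higher and 0 lower. HS26M (TRINITY_DN3210_c0_g1), of mitochondria, had 1.99, 4.5 and 6.03 CPM in AC and PVP and 0.327, 0.449 and 0.194 CPM in CK (log2 fold change 3.66, SE 0.63, adjusted p = 0.019). HSP12 (TRINITY_DN683_c0_g2), had 159, 263 and 216 CPM in AC and PVP and 45.9, 46 and 71.5 CPM in CK (log2 fold change 1.97, SE 0.44, adjusted p = 0.049), and the number of the 8 called was 0 without AC and PVP replicate 3, without CK replicate 1 and without CK replicate 3. Of 13 metal transport and storage proteins, HIP7 and VITH4 were higher and FRO4 was lower. FRO4 (TRINITY_DN2109_c0_g1), a reductase that makes iron or copper available for uptake, had 4.83, 5.64 and 4.95 CPM in AC and PVP and 15.7, 19.8 and 19.5 CPM in CK (log2 fold change -1.84, SE 0.28, adjusted p = 0.012). HIP7 (TRINITY_DN3674_c0_g1), a metal-binding isoprenylated protein, had 21.4, 11.5 and 35 CPM in AC and PVP and 3.36, 4.8 and 2.72 CPM in CK (log2 fold change 2.64, SE 0.38, adjusted p = 0.01). VITH4 (TRINITY_DN12246_c0_g1), a relative of vacuolar iron transporters, had 0.853, 1.07 and 0.63 CPM in AC and PVP and 0.0297, 0 and 0.0388 CPM in CK, where 2 counts were found in all (ratio 35.5, 95% counting interval 9.23 to 303, adjusted p = 0.01). Metallothioneins, small metal-binding proteins, had 1 of 13 members higher and 1 lower. The lower one, MT2 TRINITY_DN29305_c0_g2, had 0.19, 0.134 and 0 CPM in AC and PVP and 166, 198 and 0.194 CPM in CK, so that 1 CK library lacked it almost as AC and PVP did (log2 fold change -9.87, SE 2.26, adjusted p = 0.048), and its call was lost in 10 of 17 other fits, whose adjusted p ran from 2.7e-58 to 0.23.

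Among the called named unigenes that were lower and that the rule for naming chose by size were regulators, a monooxygenase and transposon-related transcripts. MO1 (TRINITY_DN2517_c0_g1), a monooxygenase, had 22.8, 20.3 and 22.6 CPM in AC and PVP and 63.3, 519 and 220 CPM in CK (log2 fold change -3.61, SE 0.61, adjusted p = 0.017). CRK25 (TRINITY_DN1463_c0_g2), a cysteine-rich receptor-like kinase, had 1.04, 1.68 and 0.18 CPM in AC and PVP and 6.92, 8.67 and 13.1 CPM in CK (log2 fold change -3.26, SE 0.48, adjusted p = 0.01). EF109 (TRINITY_DN12584_c0_g1), an ethylene response factor, had 0.142, 0.268 and 0.27 CPM in AC and PVP and 2.67, 4.45 and 0.893 CPM in CK (log2 fold change -3.58, SE 0.78, adjusted p = 0.042). MYB59 (TRINITY_DN12606_c0_g1) had 1.09, 1.61 and 1.17 CPM in AC and PVP and 4.46, 30.9 and 8.62 CPM in CK (log2 fold change -3.5, SE 0.72, adjusted p = 0.037). GUN12 (TRINITY_DN8534_c0_g1), an endoglucanase that cuts wall glucans, had 0.616, 0.604 and 0.54 CPM in AC and PVP and 4.01, 7.01 and 5.01 CPM in CK (log2 fold change -3.16, SE 0.46, adjusted p = 0.01). In MO1, EF109, MYB59 and GUN12, CK replicate 2 was the highest library. Of 21 transposon-related unigenes, 2 were lower and 0 higher although the median log2 fold change was 2.1. POLX TRINITY_DN1447_c0_g1 had 3.51, 8.39 and 3.33 CPM in AC and PVP and 81.7, 16 and 126 CPM in CK (log2 fold change -3.87, SE 0.65, adjusted p = 0.017).

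Unigenes without a name made up 310 of the 460 DEGs. The higher one with the smallest adjusted p, TRINITY_DN5378_c0_g1, had 19.7, 10.9 and 16.7 CPM in AC and PVP and 1.16, 0.718 and 0.893 CPM in CK (log2 fold change 4.07, adjusted p = 0.00031). TRINITY_DN9163_c0_g2 had 3.74, 2.95 and 3.69 CPM in AC and PVP and 0.0594, 0.0898 and 0.0388 CPM in CK. Among the lower ones, TRINITY_DN2076_c0_g1 had 1.47, 1.74 and 0.45 CPM in AC and PVP and 29.2, 14 and 36.8 CPM in CK (log2 fold change -4.41), and TRINITY_DN1764_c0_g1 had 4.17, 3.49 and 3.42 CPM in AC and PVP and 18.6, 10.1 and 17.6 CPM in CK (log2 fold change -2.06). No annotation was at hand for these 4, and the libraries of both groups did not overlap in any of them.

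Transcripts of embryo reserves set single libraries apart within both groups. Seed storage, oil body and late embryogenesis proteins together took 2880, 21700 and 7710 CPM of the whole library in AC and PVP and 4110, 54700 and 3870 CPM in CK, over 26 unigenes. Replicate 2 was the highest in both groups, and the groups overlapped. Of the 26, 1 was higher, a vicilin-like storage protein (VICHY, TRINITY_DN1097_c0_g1) at 6.3, 3.29 and 6.84 CPM in AC and PVP and 0.357, 0.584 and 1.09 CPM in CK (log2 fold change 3.02, SE 0.62, adjusted p = 0.037), and 0 were lower. LEA1 (TRINITY_DN2199_c0_g2), a protein that protects drying seeds, had 91.8, 262 and 113 CPM in AC and PVP and 29.6, 4140 and 6.64 CPM in CK. Its log2 fold change was -3.16 with all libraries (adjusted p = 0.36) and 3.1 without CK replicate 2 (adjusted p = 0.065). With both libraries richest in embryo reserves left out, a choice made after seeing the data, 913 of 51507 unigenes tested were DEGs. Of these, 638 were higher and 275 lower, and they held 267 of the 460 DEGs above. In that fit 24 of 33 lipid transfer proteins, 5 of 10 defensins and 3 of 4 leaf polarity regulators were higher. Of 7 root development regulators, 4 were lower and 2 higher. Of 18 suberin, cutin and wax enzymes, 6 were lower and 3 higher, and 0 histones were higher. The shares among named unigenes were not taken in that fit. The part of the reserve transcripts in the other differences was not tested further.

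**Figure D4:**
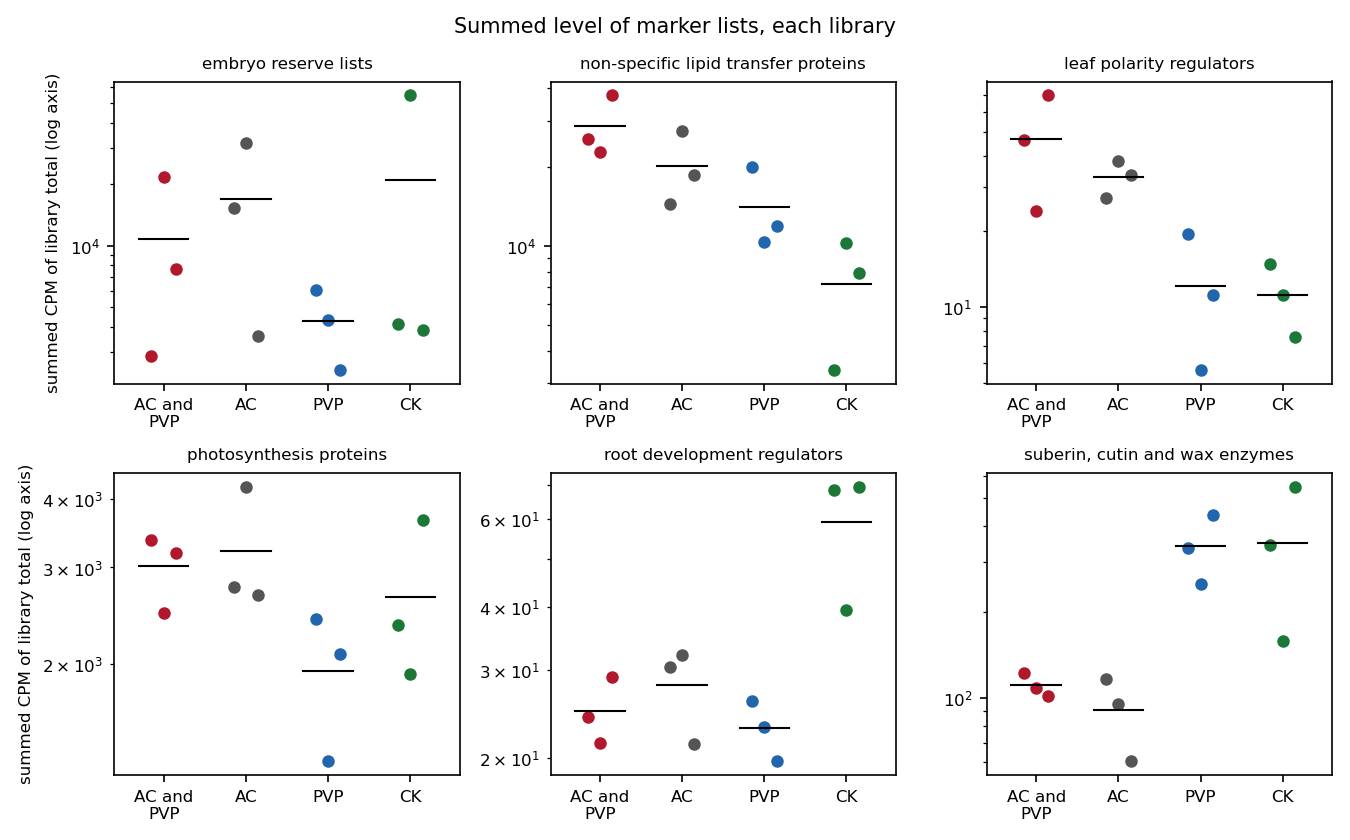
Summed level of 6 marker lists per library, in CPM of the library total on log axes, with bars at group means. Lipid transfer proteins and leaf polarity regulators lie higher in AC and PVP than in CK and root development regulators and suberin, cutin and wax enzymes lie lower, with no overlap. Embryo reserves and photosynthesis proteins overlap on this scale, which has no TMM scaling.

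The levels with each agent alone show how far the values of AC and PVP stood from those with 1 agent. All comparisons with CK share the same 3 CK libraries and are therefore given side by side only. AC alone gave 189 DEGs against CK (0.324%, with 0.182% higher) and PVP alone gave 407 (0.699%, with 0.527% higher). Of the 33 lipid transfer proteins, 16 were higher in AC and PVP, 6 with AC alone and 2 with PVP alone, with medians of 2.85, 2.51 and 1.86. Of the 10 defensins, 5 were higher in AC and PVP, 5 with AC alone and 4 with PVP alone, with medians of 2.35, 2.38 and 2.12. For histones, 2 of 11 were higher in AC and PVP, 0 with AC alone and 7 with PVP alone. Of the 2, H41 TRINITY_DN14029_c1_g1 had counts only in AC and PVP. It could not be called with either agent alone, and its call gives no support. For small heat shock proteins, 3 of 8 were higher in AC and PVP, 4 with AC alone and 0 with PVP alone. The median of suberin, cutin and wax enzymes was -1.23 in AC and PVP, -1.75 with AC alone and 0.93 with PVP alone. Leaf polarity regulators had medians of 3.04, 2.74 and 1.45, and root development regulators of -1.96, -1.72 and -0.14, in the same order. The summed level of the root development regulators was 30.4, 32.1 and 21.3 CPM with AC alone. With PVP alone it was 26, 23.1 and 19.7 CPM, so both single agents also lay below CK. Whether these counts, medians and sums differ between the agents was not tested.

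Tested directly, AC and PVP differed from AC alone in 4 unigenes (0.00687%), 2 higher (0.00343%) and 2 lower (0.00343%). TCTP was higher, with 16.9, 57 and 21.8 CPM in AC and PVP and 0.285, 0 and 0 CPM with AC alone (log2 fold change 8.1, SE 0.9, adjusted p = 0.0023). ERD15 was higher, with 49.6, 109 and 29.9 CPM in AC and PVP and 0.325, 0.312 and 0.843 CPM with AC alone (log2 fold change 7.01, SE 0.83, adjusted p = 0.011). FRO4 was lower, with 4.83, 5.64 and 4.95 CPM in AC and PVP and 23, 25 and 14.8 CPM with AC alone (log2 fold change -2.02, SE 0.29, adjusted p = 0.047). The other one lower was the metallothionein MT1 (TRINITY_DN48538_c0_g1), with 0, 0.268 and 0.18 CPM in AC and PVP and 530, 1.04 and 2340 CPM with AC alone (log2 fold change -12.75, SE 1.88, adjusted p = 0.047), where AC replicate 2 was close to AC and PVP. MT1 was not called against CK (adjusted p = 0.55). With RLE size factors and with filterByExpr 0 unigenes were lower than with AC alone, so the calls of FRO4 and MT1 ended in both, and with filterByExpr 1 unigene was higher, so at least 1 of the calls of TCTP and ERD15 ended too.

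From PVP alone, at its lower dose, AC and PVP differed in 41 unigenes (0.0704%), 17 higher (0.0292%) and 24 lower (0.0412%). The higher ones included all 4 NLTPC transcripts, TCTP, PTR1, GDL29, GDL34 and HIP7. NLTPC TRINITY_DN1059_c0_g1 had 148, 34.4 and 1430 CPM in AC and PVP and 0.423, 0.212 and 3.5 CPM with PVP alone (log2 fold change 8.65, SE 1.51, adjusted p = 0.05). Its level with AC alone was 29.1, 310 and 562 CPM. Among the lower ones was C86A1 (TRINITY_DN15387_c0_g1), which hydroxylates fatty acids for suberin in Arabidopsis roots (log2 fold change -2.88, SE 0.44, adjusted p = 0.032). Also lower were HHT1 (-2.57, SE 0.43, adjusted p = 0.038) and CCR1 (TRINITY_DN9614_c0_g1), the first enzyme committed to monolignols (-1.84, SE 0.31, adjusted p = 0.038). HHT1 had 50.3, 59 and 34.4 CPM in AC and PVP and 213, 226 and 417 CPM with PVP alone, without overlap. The counts moved with the fit, from 1 to 48 unigenes against AC alone and from 5 to 429 against PVP alone. With filterByExpr 4 unigenes were higher and 1 was lower than with PVP alone, so at least 2 of the calls of C86A1, HHT1 and CCR1 ended there.

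Whether the joint effect departed from the sum of both single effects on the log2 scale was tested as an interaction, and 1 unigene was called (0.00172%), against 4332 at an unadjusted p under 0.05. It was the unnamed TRINITY_DN14585_c0_g1, with 8.2, 66 and 58.2 CPM in AC and PVP, 104, 118 and 120 CPM with AC alone, 0.296, 0.318 and 0.375 CPM with PVP alone and 90.7, 207 and 204 CPM in CK. It was nearly absent with PVP alone and present in the other 9 libraries (interaction 7.61 on the log2 scale, SE 0.85, adjusted p = 0.0084). Since PVP was at 2 g/L alone and at 2.5 g/L with AC, the interaction holds the change in dose as well.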

How the data were processed

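RNA of 12 pools of "FengDan" embryo seedlings, 3 for each treatment label, had been sequenced. Per the labels and methods, the authors trimmed reads with TrimGalore 0.6.4, assembled them with Trinity 2.4.0, aligned them with Bowtie 1.2.3 and estimated a count per unigene and library with RSEM 1.3.3. These deposited estimated counts (expected counts, not normalized) were the starting point, and 2.39% to 3.97% of the values in a library were not whole and were rounded. Columns of per-sample values left out numbered 0.

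Of 130956 unigenes, 58247 had a nonzero count in 3 or more libraries and were tested. All 12 libraries were fitted together in edgeR 4.0.16 (run under R 4.3.3, beside limma 3.58.1), with TMM scaling, the quasi-likelihood F test without legacy or robust estimation and Benjamini-Hochberg adjustment over all unigenes tested. The SE was taken as the size of the log2 fold change over the root of F. Where CK had no counts, a floor of 3 counts for the whole group was used, and counting intervals are exact at 95%. Library totals limit what low unigenes can show, most of all in AC and PVP replicate 3. In the study's read statistics that library also had the lowest base quality of the 12, well below the others. The fits were tested on simulated data.

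The comparison, the 34 gene lists and the rule for named unigenes were chosen with earlier results of these data known. The rule takes, for each list described, every called member and the 3 members of lowest adjusted p, the 10 named DEGs with the largest change in each direction (mean log2 CPM above 0, no overlap), 2 unnamed DEGs in each direction, PPO and the unigenes the study names by identifier. From it the text gives those that bear on each group. Alternatives were DESeq2 1.42.0, RLE size factors, library sizes alone, other filters, other options of the test, 2 groups only, the replicate number as a block and each library left out in turn. No reference sequence was used here.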

Additional observations from a re-analysis of the deposited data

Results flagged for a closer look

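The unnamed TRINITY_DN14585_c0_g1 stood out because its change with AC and PVP over AC differed from its change with PVP over CK by 7.61 on the log2 scale (SE 0.85, edgeR adjusted p = 0.0084). It had 8.2, 66 and 58.2 CPM in AC and PVP, 104, 118 and 120 CPM with AC alone, 0.296, 0.318 and 0.375 CPM with PVP alone and 90.7, 207 and 204 CPM in CK. All 3 libraries with PVP alone were low, so that PVP lay below CK while AC and PVP lay closer to AC. The adjusted p was 0.01 with RLE size factors, 0.075 with the filterByExpr filter, 1.6e-06 with the replicate number as a block and 4.2e-12 with DESeq2.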

How the results depend on the processing

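The number of DEGs between AC and PVP and CK, 460, depended on the test and on single libraries. It was 767 with library sizes alone, 821 with the filterByExpr filter, 2803 with no filter, 1443 and 1608 with DESeq2 on 2 groups and on all libraries, and 135 with edgeR on the 2 groups only. Leaving out 1 library gave 50 to 734, and leaving out both libraries richest in embryo reserves, added after seeing the data, gave 913. RLE size factors (450, with 314 higher and 136 lower), legacy estimation (596), robust estimation (656, with 285 higher and 371 lower) and the adjusted p alone (460) stayed within 1.5 times. No DEG changed sign in any of these fits, and the smallest shares of the 460 that stayed called were 10% without CK replicate 3 and 10.9% without AC and PVP replicate 3. The replicate number as a block gave 1433, which held all 460. The labels say nothing of what shared numbers mean, and the study's methods call the replicates paired without saying how. Deviations of same-numbered libraries correlated at 0.05, -0.04 and -0.1, nor did each library correlate best with its own number. So few correlations cannot settle whether the numbers pair the samples, and the main fit used no pairing. Against AC alone, the count of 4 was 2 with RLE size factors, 1 with filterByExpr, 48 with the block and 41 with DESeq2. Against PVP alone, the count of 41 was 5 with filterByExpr, 429 with the block and 335 with DESeq2. The interaction count of 1 was 0 with filterByExpr, 98 with the block and 104 with DESeq2. Of 1436 values for the 85 called unigenes that the rule for naming chose, over 17 fits, 1062 stayed called, 374 did not and 0 changed sign. LEA1, which was not called, ran from -3.77 to 3.1 with 1 library left out, with 3.1 without CK replicate 2, and turned to 2.49 without both libraries richest in embryo reserves, against -3.16. Summed levels of 4 lists kept their direction, between 1.64 and 2.51 on the log2 scale for lipid transfer proteins, between 1.62 and 2.39 for leaf polarity regulators, between -1.49 and -0.82 for root development regulators and between -1.97 and -1.07 for suberin, cutin and wax enzymes. The cause of the other shifts was not tested.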

Other observations

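Reads confined to 1 group were rare. With at least 5 counts in each library of a group and 0 in the other 9 libraries, 2 unigenes were found for AC and PVP, H41 TRINITY_DN14029_c1_g1 and TCTP TRINITY_DN37979_c1_g1, 0 for AC alone, 0 for PVP alone and 1 for CK. The 2 of AC and PVP passed the filter for testing only through that group, so their calls give no support. Glyoxylate cycle enzymes, which turn stored fat into sugar precursors, were not called by edgeR (2 of 2 at an unadjusted p under 0.05, 1 by DESeq2), although MASY (TRINITY_DN97003_c0_g1), a malate synthase, had 9.72, 4.16 and 49.5 CPM in AC and PVP and 0.357, 3.23 and 1.28 CPM in CK (edgeR adjusted p = 0.095). The pair of abundant C7124 unigenes were not called. TRINITY_DN6_c0_g3 had 477, 169 and 692 CPM in AC and PVP and 273, 74.1 and 62.6 CPM in CK (adjusted p = 0.21), and TRINITY_DN6_c0_g2 had 236, 138 and 260 CPM in AC and PVP and 164, 39.9 and 41.5 CPM in CK (adjusted p = 0.27). Without CK replicate 1 the adjusted p of the second was 0.046. A storage protein unigene, VICHY TRINITY_DN913_c0_g1, was abundant in each library, with 1520, 2190 and 763 CPM in AC and PVP and 2490, 1390 and 2620 CPM in CK.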
